A study of Mus musculus with 4 samples.

Results

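Foxo1, Foxo3, Foxc1, Foxc2 and Foxp1, 5 forkhead transcription factor genes studied in endothelium, were followed in single cells of the mouse ear dermis. They were chosen by name and matched to the count files by Ensembl identifier, and they make up 5 of the 46517 genes counted and 5 of the 44 forkhead genes among them. Live CD31+/CD45-/Lyve1- cells, a gate for blood endothelial cells (BECs) that leaves out leukocytes and Lyve1+ lymphatic cells, had been sorted into 4 plates of 384 wells and sequenced with Smart-seq2, a full-length method without molecular identifiers. All plates belonged to a single group of untreated female C57Bl/6 mice aged 12 to 26 weeks by the labels (the study's methods give a different range), with no genetic change named in the labels. The ears of 6 mice were pooled, and the plates were labelled as replicates 1 and 2, each with plates A and B. Whether the replicates came from separate pools is not given in the sources used here, so p-values measure only the spread between these samples.

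Forkhead proteins bind DNA through a winged-helix domain, and its recognition helix reads the base sequence. FoxO proteins are held out of the nucleus when Akt, downstream of PI3 kinase, phosphorylates them, so an mRNA level does not measure their activity. In endothelium FoxO1 is known to repress Cldn5, which encodes the tight junction protein claudin-5, together with beta-catenin. FoxC2 is required for lymphatic valves and collecting vessels, FoxC1 is its close relative, and FoxP1 is mainly a repressor.

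The stretch that encodes the end of the recognition helix is shown for Foxc1, Foxc2 and Foxo3, because it shows how near Foxc1 and Foxc2 are to each other, on which the assignment of their reads depends, beside a member of another subfamily. The sequences are 36 bases long, read 5′ to 3′ on the coding strand from GENCODE transcripts on mm10, and lie in coding exons. Capitals mark bases that differ from Foxc1.
Foxc1: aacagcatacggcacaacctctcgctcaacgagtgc
Foxc2: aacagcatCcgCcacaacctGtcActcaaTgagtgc
Foxo3: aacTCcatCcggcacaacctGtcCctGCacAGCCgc
Foxc2 differed from Foxc1 at 5 of the 36 bases, whereas Foxo3 differed from it at 11. Over their exons Foxc1 and Foxc2 shared 4 words of 50 bases, the read length, of 5795 and 2676 words, and Foxo1, Foxo3 and Foxp1 shared 0 with any other forkhead gene. Reads that could be split between members were thus confined to a small part of Foxc1 and Foxc2. Pseudogenes outside the family were not searched.

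On mm10, Foxo1 (ENSMUSG00000044167) lies at chr3:52268336-52353221 on the plus strand, with 8665 exon bases. Foxo3 (ENSMUSG00000048756) lies at chr10:42181841-42276755 on the minus strand, with 7571 exon bases and its helix stretch at chr10:42197866-42197901. The single-exon gene Foxc1 (ENSMUSG00000050295) lies at chr13:31806633-31812476 on the plus strand, with its stretch at chr13:31807577-31807612. Foxc2 (ENSMUSG00000046714), also a single exon, lies at chr8:121116171-121118895 on the plus strand, with its stretch at chr8:121116963-121116998. Foxp1 (ENSMUSG00000030067) lies at chr6:98925338-99522721 on the minus strand, with 13751 exon bases. The antisense gene Gm20402 shares 674 exon bases with Foxo1, and Gm20696 and the miRNA gene Gm49348 share 300 and 135 with Foxp1. Smart-seq2 does not keep the strand, so reads from these shared bases cannot be told apart.

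Replicate 1 was sequenced more deeply, with 74739095 and 63091443 reads on its plates against 31864976 and 35546726 in replicate 2. Wells were kept as BECs when they held reads of at least 2 of the endothelial genes Pecam1, Cdh5 and Kdr. Ptprc, Pdgfrb, Kcnj8, Lyve1 and Prox1 each had to be under 100 CPM (a gene's count scaled to a common total per well). Lymphatic-like wells, named below, were left out, and this left 332 wells in replicate 1 and 347 in replicate 2. Clustering without the forkhead genes gave artery-like (16 and 24 wells), capillary-like (110 and 24) and vein-like (45 and 30) classes, 161 and 269 BEC wells of no class, and 18 and 109 lymphatic-like wells. The summed level of each class's own markers in that class was 6285 and 5843 CPM for artery, 15811 and 7854 for capillary, 6976 and 10021 for vein, and 5477 and 12139 for lymphatic. The artery-like wells of replicate 1 also held 8561 CPM of the capillary markers, against 1422 in replicate 2, and the vein-like wells of replicate 2 held 3157 CPM of fibroblast markers, 3144 of it from a single marker, against 104 in replicate 1. The part of these reads in the artery- and vein-like values was not tested. The lymphatic-like wells went against the Lyve1- gate in part: 3 of 18 wells in replicate 1 and 87 of 109 in replicate 2 held a Lyve1 read. Reads of the mural gene Rgs5 were in 332 of 332 BEC wells of replicate 1 and in 224 of 347 of replicate 2, and their part in the levels below was not tested. Of the BEC wells, 19 and 42 fell in 3 clusters led by genes of fibroblasts, skeletal muscle or cartilage, such as Col1a1, and without them the mean level of each of the 5 members over BECs moved by less than 1 SD between replicates.

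Per kilobase of exon, Foxo1 and Foxp1 were the most abundant of the 5 members in BECs, at 14.5 ± 2.21 and 13.6 ± 3.50 CPM per kb (mean ± SD over 2 replicates, as throughout), and these levels did not differ beyond their spread. Foxo3 followed at 3.32 ± 0.391, Foxc1 at 1.35 ± 0.280 and Foxc2 at 0.598 ± 0.0748 CPM per kb. In lymphatic-like wells the order of the means was different, with Foxc2 at 91.6 ± 72.1, Foxp1 at 42.6 ± 8.55, Foxo1 at 34.6 ± 5.90, Foxc1 at 12.4 ± 9.41 and Foxo3 at 1.82 ± 2.58 CPM per kb. The lymphatic levels of Foxc2, Foxp1 and Foxo1 lay within 1 SD of Foxc2 of each other. In all other sentences levels are CPM per well without division by length, and compare a gene only with itself.

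**Figure D1:**
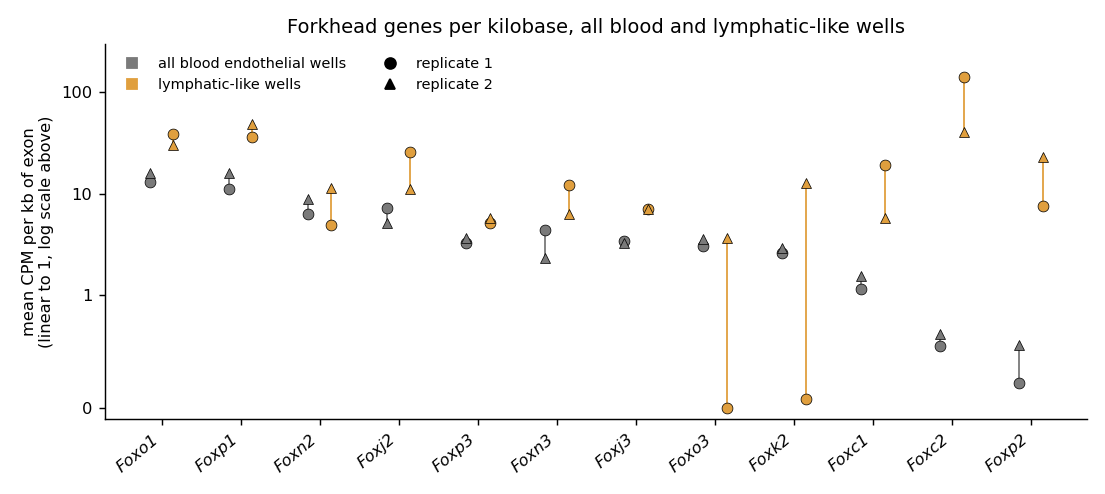
Mean CPM per kb of exon (vertical axis, linear to 1 and logarithmic above) of the 5 members and the other forkhead genes named here, over all BEC wells and lymphatic-like wells, with a point for each replicate and a line joining the pair. Foxo1 and Foxp1 stood highest in BECs at 14.5 and 13.6 CPM per kb, and Foxc2 was lowest of the members there. In lymphatic-like wells it stood above Foxp1 in replicate 1 (143 against 36.5) and below it in replicate 2 (40.6 against 48.6).

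**Figure D2:**
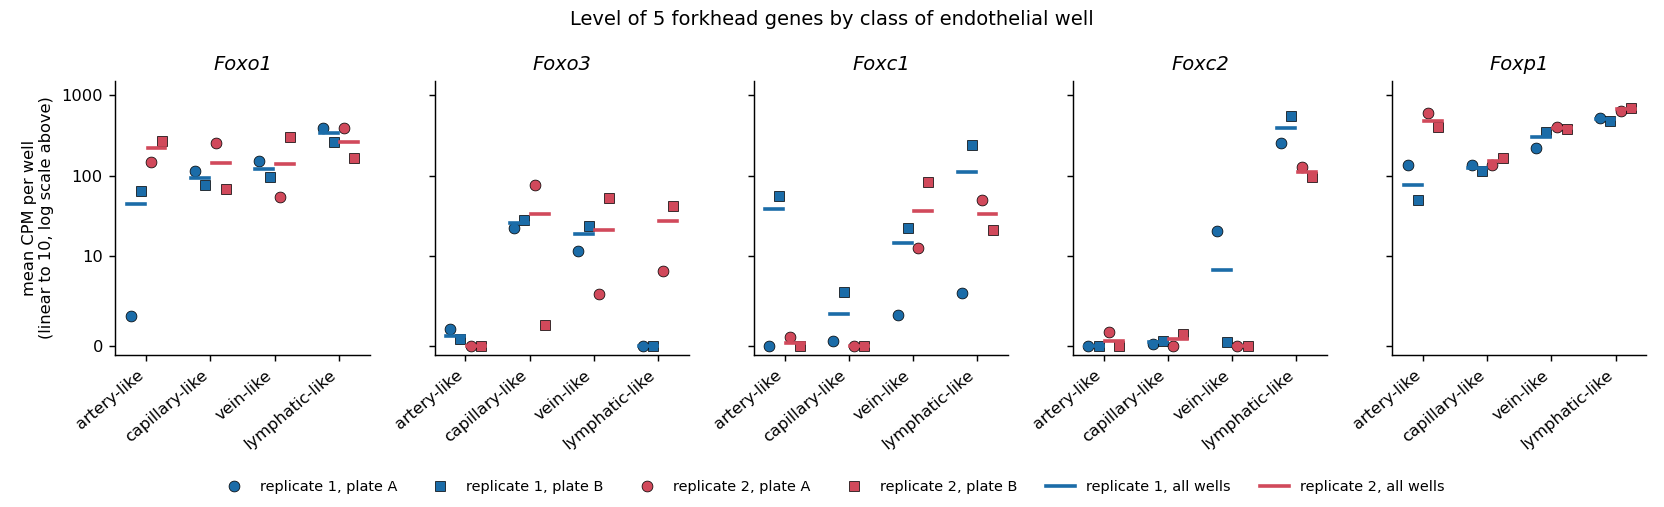
Mean CPM per well of each member (vertical axis, linear to 10 and logarithmic above) in the 4 classes, with a point for each plate and a bar for each replicate over all its wells. Foxc2 lay between 97.0 and 551 CPM on all 4 plates in lymphatic-like wells and at or under 20.6 CPM in the other 3 classes.

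Foxo1 was present in all classes of blood vessel and its order along the vessel tree could not be told. Over all BECs its level was 123, 102, 149 and 129 CPM on plates 1A, 1B, 2A and 2B. In artery-like wells the plates gave 3.35, 64.3, 147 and 269 CPM, in capillary-like wells 113, 76.4, 255 and 67.7, and in vein-like wells 154, 97.3, 54.3 and 307. The plates of the 3 classes overlapped, and the order of the classes was not the same in the replicates. The class means of 134 ± 126, 119 ± 37.1 and 129 ± 13.0 CPM differed by less than the spread between replicates.

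A Foxo1 read was found in 213 of 332 BEC wells of replicate 1 (64.2%, exact 95% interval 58.7–69.3) and 164 of 347 of replicate 2 (47.3%, 41.9–52.7). All such intervals are Clopper-Pearson and cover counting error only. Replicate 1 was the deeper. With each well thinned to 20000 reads the shares were 32.3% of 331 wells and 35.4% of 280 wells, with replicate 2 the higher. After thinning, the artery-, capillary- and vein-like shares were 18.8%, 26.4% and 44.4% in replicate 1 and 37.5%, 34.8% and 27.6% in replicate 2, which is the opposite order.

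In lymphatic-like wells Foxo1 reached 395, 262, 391 and 168 CPM on the 4 plates, and each plate stood above its own BEC value. The replicate means were 336 and 264 CPM, but a single well carried 59.9% of the summed CPM of replicate 1. The lymphatic-like minus blood difference was 0.94 ± 0.59 on the log2 scale (SE, edgeR) with an adjusted p of 0.670, and 1.56 and 0.30 in the replicates taken alone, so no difference was shown.

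Foxo3, the second FoxO gene, was rarer, with reads in 74 of 332 BEC wells (22.3%) of replicate 1 and 27 of 347 (7.78%) of replicate 2. The plates gave 26.1, 20.4, 34.6 and 20.3 CPM over all BECs. In artery-like wells, 2 reads were found in 2 of 16 wells in replicate 1 and no read in 24 wells of replicate 2, where 0 allows a share of up to 12.5%. This limit is 3 counts of the total, as for each 0 below, and the exact interval reaches 14.2%. Foxo3 was thus nearly undetected in the artery-like class.

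In vein-like wells the replicate levels of Foxo3 were 18.8 and 21.4 CPM, from 13 of 45 and 3 of 30 wells. In capillary-like wells they were 25.6 and 33.4 CPM, from 28 of 110 and 2 of 24 wells, and a single well gave 140 of the 141 reads of replicate 2. The ratio of summed reads between vein- and artery-like wells was 27.3 in replicate 1 (95% counting interval 7.47–226), and the vein-like sum was at least 23.6-fold higher in replicate 2, against a floor of 3 counts per library. These ratios describe the pooled reads of few wells. Across replicates the artery-like minus vein-like difference was -5.33 ± 2.86 (log2, SE, edgeR) with an adjusted p of 0.774, and it did not pass the test. It was -9.65 without replicate 1, -4.55 without replicate 2 and -0.84 with a limit of 300 CPM. Under that limit the classes were drawn anew. Its artery-like cluster had 4 artery markers higher than in the other wells, against 11 in the cluster used here, so the class itself changed. In lymphatic-like wells Foxo3 was not detected in 18 wells of replicate 1, which allows up to 16.7% (exact, 18.5%), and stood at 27.6 CPM in replicate 2 (15 of 109 wells).

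Foxp1 was the member most often detected, with a read in 255 of 332 BEC wells of replicate 1 (76.8%) and 200 of 347 of replicate 2 (57.6%). Its level over BECs was 135, 167, 213 and 228 CPM on the 4 plates. In vein-like wells the plates gave 221, 355, 403 and 377 CPM, and in capillary-like wells 135, 115, 136 and 166. These plates did not overlap, and vein-like wells stood higher in both replicates. Artery-like wells spread over both, at 138, 49.9, 599 and 398 CPM.

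Thinning to 20000 reads gave the same order of vein- and capillary-like wells for Foxp1, with a read in 71.1% and 58.6% of vein-like wells against 34.5% and 26.1% of capillary-like wells. The capillary-like class minus the mean of the other 2 was -0.87 ± 0.61 (log2, SE, edgeR) with an adjusted p of 0.971, at -0.22 in replicate 1 and -1.32 in replicate 2 alone. Vein- and capillary-like wells were not tested against each other alone.

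Foxp1 was highest in lymphatic-like wells, at 520, 480.2, 630.2 and 698 CPM on the 4 plates, above every vein- and capillary-like plate. The artery-like plate 2A, at 599, lay between them. Reads were in 17 of 18 and 83 of 109 of these wells. The lymphatic-like minus blood difference was 1.46 ± 0.52 (log2, SE, edgeR) with an adjusted p of 0.309, and 2.11 and 0.89 in the replicates taken alone. A difference in the same direction was thus seen in both replicates and did not pass the test. In mural-like wells, which held at least 300 CPM of Pdgfrb or Kcnj8 with Pecam1 under 100 CPM and were kept apart from the BECs, the plates gave 81.9, 2.93, 1.21 and 84.3 CPM and did not agree within a replicate.

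**Figure D3:**
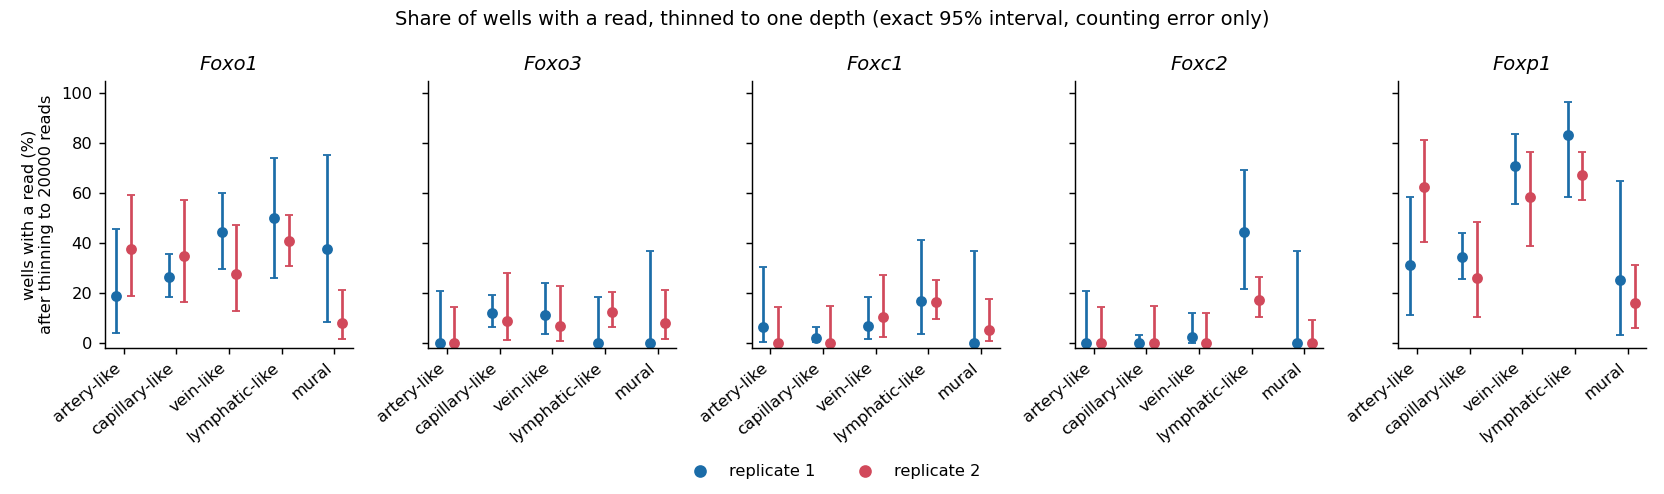
Share of wells with a read of each member after every well was thinned to 20000 reads (vertical axis, percent), by class and replicate, with exact 95% intervals for counting error. Foxp1 was detected in 71.1% and 58.6% of vein-like wells, and Foxc2 in 44.4% and 17.3% of lymphatic-like wells.

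Foxc1 was sparse in BECs, with reads in 33 of 332 (9.94%) and 21 of 347 wells (6.05%) and a level of 2.15, 10.7, 9.01 and 9.07 CPM on the 4 plates. The class values rested on few wells. A single well carried all 69 artery-like reads of replicate 1, which gave 38.6 CPM, and replicate 2 stood at 0.357 CPM. Capillary-like wells gave 3.52 CPM and 0 of 24 wells, which allows up to 12.5% (exact, 14.2%), and vein-like wells 14.8 and 36.6 CPM from 6 of 45 and 3 of 30 wells. The order of the blood classes could not be read from these values.

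In lymphatic-like wells the plates gave 5.93, 243, 49.5 and 21.3 CPM of Foxc1, from 6 of 18 and 20 of 109 wells, and 90.3% of the summed CPM of replicate 1 came from a single well. The share of wells moved less between replicates: after thinning it was 16.7% and 16.3% of lymphatic-like wells against 3.93% and 4.64% of BEC wells. The lymphatic-like minus blood difference was 3.61 ± 1.42 (log2, SE, edgeR) with an adjusted p of 0.393, and it did not pass the test. It was 3.39 and 6.09 in the replicates taken alone, and 1.37 with classes from marker scores.

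Foxc2 was the member that marked lymphatic-like wells. Its level there was 259, 551, 129 and 97.0 CPM on the 4 plates. Over all BECs it was 2.65, 0.480, 0.230 and 3.24 CPM, so the ranges were far apart on each plate. A single well at 469 CPM carried 76.2% of the BEC level of replicate 2. The BECs also held 72.7 and 869 CPM of the lymphatic markers in replicates 1 and 2, whose part in these values was not tested. In lymphatic-like wells reads were in 9 of 18 wells of replicate 1 (50.0%, 26.0–74.0) and 23 of 109 of replicate 2 (21.1%, 13.9–30.0), against 17 of 332 and 10 of 347 BEC wells. The gene was thus found in a part of the lymphatic-like wells and rarely elsewhere. The 332 and 347 BEC wells held 92 and 11 Foxc2 reads in all.

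Summed over wells, Foxc2 had 726 reads in lymphatic-like wells of replicate 1 against 82 in the 3 blood classes, a ratio per total reads of 106 (95% counting interval 84.3–135). In replicate 2 it had 1420 against 3 reads, a ratio of 565 (193–2744). Nearly all blood reads of replicate 1 came from vein-like wells (77 of 82), and the highest vein-like well, at 305 CPM, made up 79.8% of that class's level. No artery-like read was found in 16 wells of replicate 1, which allows up to 18.8% (exact, 20.6%), and no vein-like read in 30 wells of replicate 2, which allows up to 10.0% (exact, 11.6%).

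Foxc2 was higher in lymphatic-like wells by 8.17 ± 1.45 on the log2 scale (SE, edgeR, adjusted p = 0.0282), and by 9.90 and 9.40 in the replicates taken alone. It was the 1 member of 5 called, where 1.37% of the 14335 genes tested were called in this comparison and 0.816% were called higher. The fitted value depends on the prior count, since some blood sums were 0. The call was kept under all 9 other settings, with log2 differences of 6.83 to 9.69 and adjusted p of 1.45e-07 to 0.0406. All 5 members passed the filter of 10 counts in 2 class sums, Foxc2 through both lymphatic-like sums and 1 vein-like sum. At an unadjusted p under 0.05 3 members were counted, against 10.4% of all genes. DESeq2 called 1 member, against 7.67% of all genes, with 2 members at an unadjusted p under 0.05 (17.4% of all genes). The classes had been drawn from the same wells, without the forkhead genes.

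Between artery- and vein-like wells 0 of 5 members were called by edgeR, where 0.0628% of genes were, and 0 members had an unadjusted p under 0.05 (6.6% of all genes). Between capillary-like wells and the other blood classes 0 of 5 were called, where 0% of genes were, again with 0 at an unadjusted p under 0.05 (4.43% of all genes). DESeq2 called 0 members in both, where it called 4.46% and 1.6% of genes, with 1 and 2 members at an unadjusted p under 0.05 (13.9% and 10% of all genes). The precision was low. At the dispersion of these data, the artery–vein test recovered 1.5% of 200 simulated 4-fold changes among 13593 genes, so 4-fold differences in the members could have been missed.

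**Figure D4:**
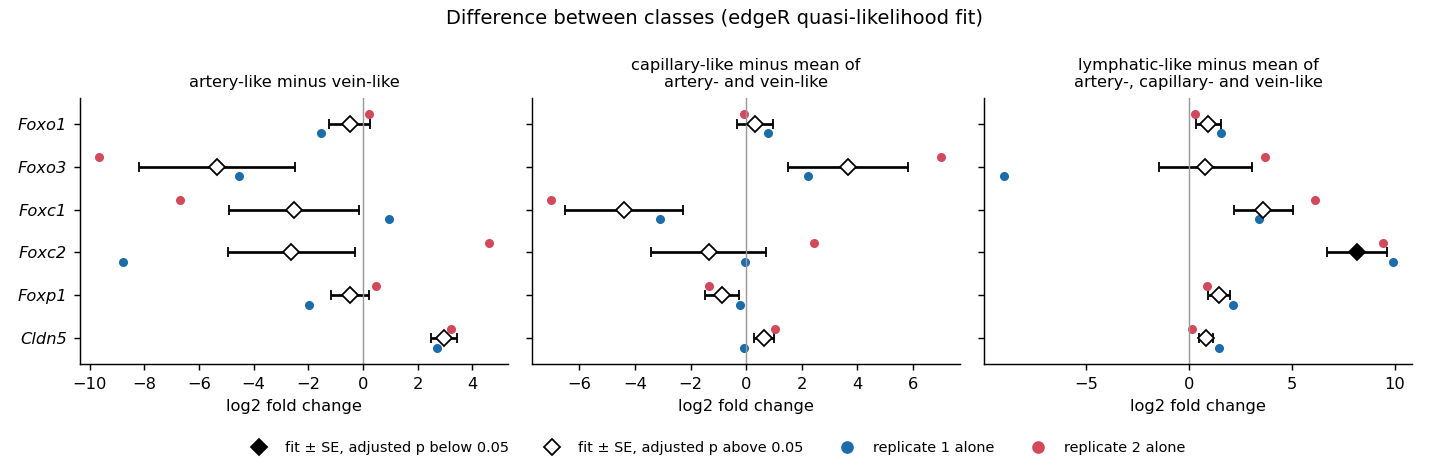
Log2 difference (horizontal axis) of the 5 members and Cldn5 in the 3 comparisons, as the edgeR estimate with its standard error and the values of the single replicates. Foxc2 in the lymphatic comparison, at 8.17, was the only member called.

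Cldn5, the gene that FoxO1 is known to repress, was highest among the blood vessels in artery-like wells. It stood at 2988 and 3604 CPM in artery-like, 1191 and 1659 in capillary-like, 496 and 410 in vein-like and 3403 and 1352 in lymphatic-like wells of replicates 1 and 2. The artery-like plates (2798 to 3660 CPM) lay above all vein-like plates (113 to 558 CPM), with a log2 difference of 2.96 ± 0.47 (SE, edgeR) and an adjusted p of 0.095, which passed the threshold under 4 of 9 other settings. In the same 2 classes Foxo1 differed by -0.49 ± 0.76 (adjusted p of 0.989, edgeR). Neither difference passed the test, and Foxo1 was at -1.54 in replicate 1 and 0.21 in replicate 2 alone.

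Within wells, the rank correlation (Spearman) of Foxo1 and Cldn5 CPM was -0.109 over the 332 BEC wells of replicate 1 and -0.0681 over the 347 of replicate 2. On plates 1A, 1B, 2A and 2B it was -0.148, -0.0887, -0.0733 and -0.0601. The sign was negative on all 4 plates and the size was small. Wells of a plate share library preparation and depth, and the correlation is given as a description. Thinned to 20000 reads, it was -0.102 (331 wells) and -0.0905 (280 wells), which lay at the 6.23 and 8.40 percentiles of the correlations of Cldn5 with 5348 genes. Among the correlations of Foxo1 with those genes, it lay at the 1.68 and 4.21 percentiles.

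By class the correlation was -0.0695 and -0.265 in artery-like wells, -0.0612 and -0.368 in capillary-like wells and -0.133 and -0.343 in vein-like wells. In lymphatic-like wells it was 0.0207 and 0.00918. The larger values all came from the 24, 24 and 30 wells of replicate 2. Among wells with a read of both genes, it was -0.0547 (213 wells) and 0.0171 (149 wells), so a negative sign was not seen in both replicates among these wells.

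BEC wells with a Foxo1 read had a mean Cldn5 level of 1115 CPM (213 wells of replicate 1) and 949.6 CPM (164 wells of replicate 2). Wells without one had 1264 CPM (119 wells) and 1200 CPM (183 wells). The medians were 719 against 972 CPM and 176 against 343 CPM. The same direction was thus seen in both replicates, and in the vein-like wells of replicate 2 it was 152 against 667 CPM over 15 wells each. In the vein-like wells of replicate 1 the means ran the other way, at 521 CPM with a Foxo1 read (37 wells) and 379.6 CPM without (8 wells), while the medians were 85.1 and 142 CPM. The wells of no class in replicate 1 had means of 1172 and 1140 CPM and medians of 717 and 882 CPM. The rank correlation of Foxo1 with a well's total reads was 0.125 and 0.0549. The same measure for Foxp1 and Cldn5, thinned, was -0.162 in replicate 1 and 0.112 in replicate 2, of opposite sign.

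**Figure D5:**
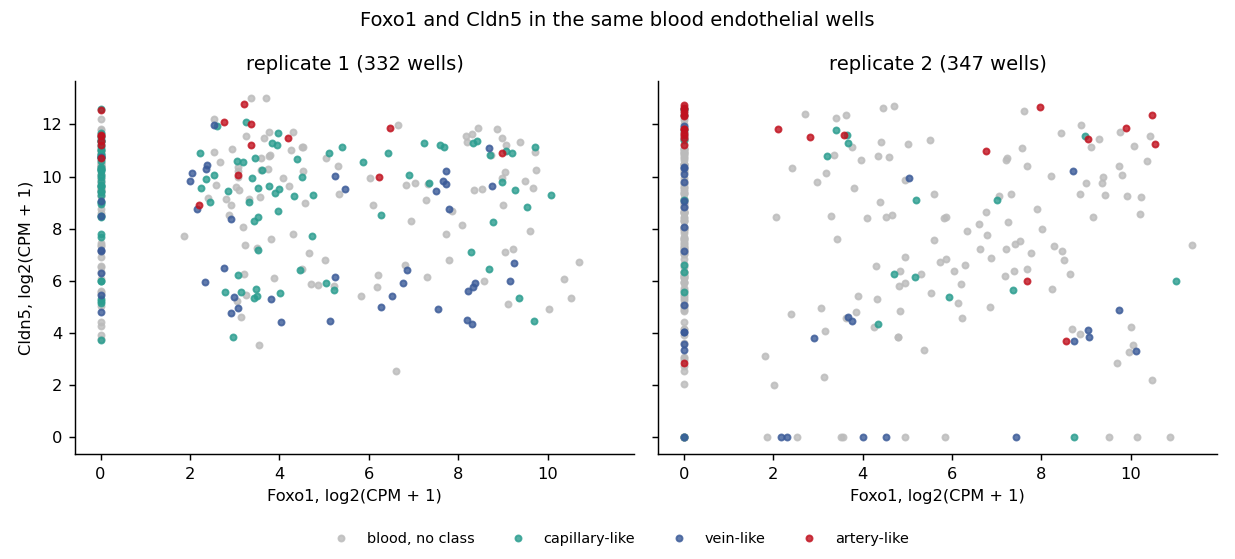
Foxo1 (horizontal axis) and Cldn5 (vertical axis) as log2(CPM + 1) in each BEC well, by replicate and class. Wells without a Foxo1 read form the column at 0 and span nearly the same range of Cldn5 as the others (up to 6224 and 6871 CPM, against 8251 and 6738), with rank correlations of -0.109 and -0.0681.

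Members were also counted in the same wells. A read of both Foxo1 and Foxp1 was in 163 BEC wells of replicate 1 and 94 of replicate 2, and the product of their shares gives 163.6 and 94.5 wells. In lymphatic-like wells Foxc1 and Foxc2 were both present in 4 of 18 and 8 of 109 wells, where the product gives 3 and 4.22. Foxo1 and Foxp1 thus met about as often as their shares give, and Foxc1 and Foxc2 met in more wells than that, at numbers too small to compare.

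The genes whose log2 CPM ran most alike with each member were found over 16 sums of a class on a plate, among 7801 genes, with Pearson's r as a description. The sums share plates and classes. For Foxc2 they included Pkhd1l1 (0.966), Slc38a4 (0.945), Prox1 (0.940) and Slc29a4 (0.934). Prox1 is the lymphatic master regulator and had been used to separate the wells. For Foxo1 they were Nipbl, Slk, Ddx17, Pcdhgc3 and Emp1 (0.912 to 0.847), and for Foxp1 Apold1, Polr2a, Ptn, Arid4b and Kctd12 (0.868 to 0.805). For Foxo3 they were Gm26649, Mtor, Wdsub1, Ppp1r15b and Gcsh (0.895 to 0.818), and for Foxc1 they included Ifngr2, Hmgn1, Ptpn18 and Hccs (0.850 to 0.827). The r values of Foxc2 were the highest of the 5. Genes that differ between lymphatic-like and blood sums run alike through that split, and Pkhd1l1 and Prox1 were among the genes leading the lymphatic-like cluster. The r values are thus no measure of closeness to Foxc2 itself.

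Of the regulators of FoxO activity (28 genes of the Akt, PI3 kinase and 14-3-3 systems and their partners), 27 were tested and edgeR called 1, in the lymphatic comparison, where 1.37% of all genes were called. Sgk3, a kinase related to Akt, was higher in lymphatic-like wells, at 399 and 234 CPM against 21.6 and 18.8 over BECs (log2 difference 4.82 ± 0.89 SE, edgeR, adjusted p = 0.0343). That call was lost with a limit of 300 CPM (adjusted p = 0.071, edgeR) and with classes from marker scores (0.144). In the artery–vein and capillary comparisons 0 regulators were called by edgeR, with 3 and 1 at an unadjusted p under 0.05 and 3 and 0 called by DESeq2. The 4 regulators with the highest CPM over BECs, a choice that depends on transcript length and is no ranking of abundance, were the kinase Sgk1 (745 ± 513 CPM), the 14-3-3 genes Ywhaz (502 ± 77.0) and Ywhab (407 ± 122) and the angiopoietin receptor Tek (394 ± 36.3). The median log2 difference of the tested regulators was -0.02, 0.02 and 0.20 in the 3 comparisons, against -0.25, 0.10 and 0.21 over all genes.

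Of 30 FoxO target genes, 22 were tested and 0 were called in any comparison by edgeR, with 3, 1 and 5 at an unadjusted p under 0.05, where 6.6%, 4.43% and 10.4% of all genes were. DESeq2 called 3 (Angpt2, Bbc3 and Bcl2l11), 1 (Cited2) and 4 (Angpt2, Bbc3, Insr and Tnfsf10), against 4.46%, 1.6% and 7.67% of all genes. Their median log2 difference was 0.09, 0.09 and -0.85. Chosen in the same way, the targets with the highest CPM were Txnip, an inhibitor of thioredoxin (1316 ± 376 CPM), the autophagy gene Map1lc3b (528 ± 193), Klf6 (384 ± 213) and Tsc22d3 (293 ± 198). The FoxO motif TGTTTAC, or GTAAACA on the other strand, was in 5 of 33 promoter windows of 25 target genes (15.2%), of 250 bases before to 50 after the gene start in RefSeq on GRCm38. Of all 32851 windows, 3.65% held it. It was in 0 of 6 windows of 4 members and 0 of 1 of Cldn5. A match in these letters is a description and not a bound site.

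All 10 lymphatic valve genes were tested, and edgeR called 3 in the lymphatic comparison, where 1.37% of all genes were called. DESeq2 called these and Itga9, an integrin chain (247 and 163 CPM against 21.96 and 32.07 over BECs). Cldn11, a claudin, was higher at 1032 and 176 CPM against 2.18 and 1.64 over BECs (log2 difference 9.98 ± 0.73 SE, edgeR, adjusted p = 0.0003). Fn1, fibronectin, was also higher (4.44 ± 0.48 SE, adjusted p = 0.0027, edgeR) than the mean of the log2 levels of the 3 blood classes, which differed among themselves. Over all BECs it stood at 49.9 and 259 CPM, against 919.8 and 286 in lymphatic-like wells, so replicate 2 was close. Lama5, a laminin chain, was lower, at 23.2 and 23.7 CPM against 188 and 340 over BECs (-3.22 ± 0.59 SE, adjusted p = 0.0329, edgeR). The members that moved thus went in both directions. The Lama5 call was lost without the replicate block (adjusted p = 0.065, edgeR) and with a limit of 300 CPM (0.171). Fn1 was also the 1 member of the 4 lists that edgeR called between artery- and vein-like wells, higher in the artery-like (log2 difference 6.17 ± 0.80 SE, adjusted p = 0.0443, edgeR), a call lost in 4 settings, at adjusted p of 0.076 without the block, 0.102 in limma, 0.774 with a limit of 300 CPM and 0.234 with classes from marker scores. In the capillary comparison 0 valve genes were called by edgeR or DESeq2 (0% and 1.6% of all genes), with 2 at an unadjusted p under 0.05 (4.43% of all genes). In the artery–vein and lymphatic comparisons 3 and 4 of the 10 had an unadjusted p under 0.05 in edgeR, where 6.6% and 10.4% of all genes had. The 4 chosen in the same way were the gap junction gene Gja1 (266 ± 44.6 CPM), Lama5 (264 ± 107), Fn1 (155 ± 148) and Gata2 (149.7 ± 56.8). The median log2 difference of the list was -0.32, -0.69 and 1.23 in the 3 comparisons.

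Foxc2 was set beside the 10 valve genes and the 8 lymphatic markers within the lymphatic-like wells, as a description. Between the 8 and 13 wells with at least 100 CPM of Foxc2 and the other 10 and 96 wells, 3 valve genes (Cldn11, Gata2 and Lama5) had the higher mean in the Foxc2 wells of both replicates, 2 (Piezo1 and Emilin1) had the lower mean in both, 4 changed direction and 1 had no read in replicate 1. The 8 and 13 wells with at least 100 CPM of Foxc2 had a mean Cldn11 level of 1541 and 493 CPM. The other 10 and 96 wells had 624 and 133 CPM. A Cldn11 read was in 62.5% against 60.0% of the wells in replicate 1 and 61.5% against 12.5% in replicate 2. For Gata2 in replicate 1 the means were 529 and 13.6 CPM, while a read was in 62.5% against 70.0% of the wells. Of the 8 lymphatic markers, Mmrn1, Lyve1, Reln and Ccl21a had the lower mean in the Foxc2 wells of both replicates, Prox1 and Fxyd6 the higher, and Flt4 and Pdpn changed direction. Mmrn1, for example, stood at 574 and 1366 CPM against 1234 and 3551, and Prox1 at 630.2 and 777 against 263 and 515. The median reads of these wells were 123631 and 96457 against 160764.5 and 64340.

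Of the 39 other forkhead genes, 11 were tested and edgeR called 1, in the lymphatic comparison, where 1.37% of all genes were called. Foxp2, a relative of Foxp1, was higher in lymphatic-like wells, at 124 and 375 CPM against 3.58 and 9.12 over BECs (log2 difference 6.30 ± 0.95 SE, edgeR, adjusted p = 0.0148). Of the 11, 2 had an unadjusted p under 0.05 in the lymphatic comparison (edgeR, 10.4% of all genes). In the artery–vein and capillary comparisons 0 were called, by edgeR or DESeq2. There 0 had an unadjusted p under 0.05 in edgeR, against 6.6% and 4.43% of all genes. The median log2 difference of the 11 was -0.41, 1.12 and 1.22. Foxj2, Foxj3, Foxk2, Foxn2, Foxn3 and Foxp3 reached 10 CPM over BECs in both replicates. Per kilobase they stood between 2.75 CPM (Foxk2) and 7.58 CPM (Foxn2), all under Foxo1 and Foxp1.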

How the data were processed

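The deposited files hold raw read counts per gene and well. Per the labels and the submitters' processing notes, the authors sorted CD31+/CD45-/Lyve1- cells from collagenase-digested ear skin, made Smart-seq2 libraries, sequenced single 50-base reads, and used TopHat2 2.1.1, SAMtools 0.1.18 and Subread 1.4.6-p5 with GRCm38/mm10. The annotation release is not given in the sources used here.

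The 92 spike-in features (0.268–2.56% of reads by plate) were left out of totals, and 512 identifiers had no symbol. Wells with at least 600 reads and 500 to 8000 genes were kept (381, 384, 375 and 381 by plate). Of these, 165, 186, 231 and 277 wells had the endothelial reads required of BECs and Ptprc, Pdgfrb and Kcnj8 each under 100 CPM. These wells were clustered with scanpy 1.11.5 and leidenalg 0.10.2 (1000 variable genes, 15 components, 15 neighbours, resolution 0.6). Forkhead, junction, FoxO, mitochondrial, ribosomal and dissociation genes were left out of the clustering. A cluster was named after a vessel or lymphatic list when at least 4 of its markers were 1.5-fold or more above the other wells in each replicate. That list also had to exceed every other list in such markers, and no other list could hold more of the cluster's top genes. Clusters of low depth without a marker among their top genes were left unnamed. Doublets were not called; the gene maximum removed 3 wells.

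Counts were summed per replicate and class (8 sums), filtered at 10 counts in 2 sums, and tested with edgeR 4.0.16 in R 4.3.3 (quasi-likelihood, TMM, replicate as a block, Benjamini-Hochberg adjustment over 14335 genes, threshold 0.05, 3 residual degrees of freedom). The replicate is a block because the classes of a replicate share mice and plates; correlations of replicate deviations between classes were 0.0401 to 0.109. Each SE printed with edgeR was derived as the size of the log2 difference over the square root of the test's F value. The test itself gives no SE. DESeq2 1.42.0, limma 3.58.1, scran 1.30.0 and other limits served as alternatives. The test was checked on simulated data: 199 of 200 4-fold changes were recovered at a dispersion of 0.05 (artery against vein, 13925 genes).

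The genes named are the 5 members and Cldn5, other forkhead genes of at least 10 CPM in BECs of both replicates, list genes past the threshold and the 4 with the highest CPM of the FoxO target, regulator and valve lists, and the 5 genes most alike each member with at least 20 CPM; the valve list and the lymphatic markers were also described beside Foxc2. Itga9, Foxs1 and Foxp4 were named after their values were seen. The members and lists were chosen with earlier results of these data known. Protein sequences were not used here. Some of the genes most alike the members and some sequences are not reported here.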

Additional observations from a re-analysis of the deposited data

Results flagged for a closer look

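Each gene in a class made a group of 4 plates. In 4 of 25 such groups, a single plate stood further from the others than Dixon's critical value at the 95% level allows. For normal values chance gives about 1 in 20 such groups. Plate means of sparse genes need not follow that rate, so the count is a description. Foxc1 in artery-like wells was 56.2 CPM on plate 1B and at most 0.953 CPM on the others, and all of it came from 1 of 11 wells. Foxc1 in capillary-like wells was 6.02 CPM on plate 1B and at most 0.515 CPM elsewhere, with 63.3% of it in 1 of 60 wells. Foxc2 in artery-like wells was 1.61 CPM on plate 2A, from 2 reads in 2 of 9 wells, and 0 on the other 3 plates. Beside 3 plates at 0, any level above 0 is flagged. Foxc2 in vein-like wells was 20.6 CPM on plate 1A and at most 0.471 CPM elsewhere, with 82.5% of it in 1 of 18 wells. The part of these wells' other contents in the values was not tested.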

How the results depend on the processing

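The counts of members called (0, 0 and 1) stayed the same under all 9 alternatives, the fit without the replicate block among them (0, 0 and 1; Foxc2 8.16, adjusted p = 0.0160 in edgeR). Over all genes the calls were 9, 0 and 196 and ranged over 0–639, 0–229 and 201–1100, the highest by DESeq2; without the count filter they were 117, 52 and 596. Calls in the 4 lists numbered 6, and 20 by DESeq2, 10 without the filter and 3 with a limit of 300 CPM. Classes were drawn anew under that limit, and its artery-like cluster had 4 artery markers higher, against 11 in the main one. Directions turned with the 300 CPM limit for Foxc1 artery–vein (0.027) and for Foxo1 and Foxo3 in capillary-like wells (-0.45 and -1.98), and for Foxo3 in lymphatic-like wells with sums per plate (-0.045) and in limma (-0.87). Leaving out replicate 1 or 2, artery–vein differences spanned -1.54 to 0.21 (Foxo1), -9.65 to -4.55 (Foxo3), -6.69 to 0.94 (Foxc1), -8.79 to 4.60 (Foxc2) and -1.96 to 0.48 (Foxp1); capillary differences -0.084 to 0.78 (Foxo1), -0.045 to 2.44 (Foxc2), -1.32 to -0.22 (Foxp1) and -0.091 to 1.05 (Cldn5); and the lymphatic difference of Foxo3 -9.0 to 3.70. The BEC level moved to 149 CPM for Foxo1 (scran); to 8.43 (limit of 10 CPM) and 38.9 (scran) for Foxo3; to 3.33 (10 CPM) and 10.1 (thinned) for Foxc1; and to 1.35 (10 CPM), 1.87 (300 CPM), 0.707 (thinned) and 4.26 (scran) for Foxc2. The Foxo1–Cldn5 correlation, as a mean of replicates, was -0.0188 among wells with a read of both and 0.0399 at the 10 CPM limit (0.198 over 18 wells of replicate 1 and -0.118 over 226 of replicate 2). Leaving out wells led by genes of other cells, chosen after seeing the data, gave -0.0943. The causes were not tested. Tests at 10 CPM were not run, since 19 wells of replicate 1 remained. At this dispersion 4-fold artery–vein changes were mostly missed in simulation.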

Other observations

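Foxs1, a forkhead gene outside the 5 members, had its highest level in mural-like wells. Its mean there was 337 ± 66.2 CPM (SD, 2 replicates), against 2.91 ± 3.13 CPM over BECs. Foxp4 also stood higher there, at 70.3 ± 23.5 CPM against 1.497 ± 1.69 CPM over BECs. The mural-like wells numbered 8 and 38 and also held 3063 and 4911 CPM of fibroblast markers, against 446 and 751 over BECs, whose part in these values was not tested. Foxc2 was at 0 and 0.149 CPM in them. Foxp3, the factor of regulatory T cells, stood at 15.8 ± 1.44 CPM over BECs, which were kept only with Ptprc under 100 CPM.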
